A study of Mus musculus with 31 samples.

Results

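Cytosolic ribosomal protein genes encode the proteins of the ribosome that works in the cytosol, with Rpl genes for the large subunit, Rps genes for the small subunit and Rplp0, Rplp1 and Rplp2 for the P stalk that recruits elongation factors. Members were all gene symbols of the Rpl, Rps or Rplp pattern that reached a TPM (a share of transcripts corrected for their length, scaled to a fixed total per library) of 1 in at least 5 whole tumour libraries, and 84 of the 54456 genes of the whole tumour table met this rule. Of these, 76 are the core genes of the ribosome (43 of the large subunit, 3 of the P stalk and 30 of the small subunit), and the other 8 are paralogs or gene copies: Rpl22l1, Rpl39l, Rpl6l, Rpl7l1, Rps27l, Rps3a2, Rps3a3 and Rps4l. The sorted cell table holds 12461 entries, and 81 members were listed there, all but Rpl39l, Rpl6l and Rps4l. Just inside the threshold were Rpl39l, with 5 libraries at 1 TPM or more, and Rpl6l, with 12, and just outside was Rpl3l, with 2 libraries and at most 4.07 TPM.

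The libraries came from AB1-mCherry, a mouse mesothelioma line that carries the red fluorescent protein mCherry and whose brightest cells had been selected by sorting before use. The hosts were female BALB/c mice, 12 weeks old and untreated. Tumours grew under the skin (subcutaneous), in the abdominal cavity (peritoneal) or in the chest cavity (pleural), and were taken on day 10. Whole tumours, which include host cells, gave 5 subcutaneous, 5 peritoneal and 6 pleural libraries, and sorted CD45-negative, mCherry-positive cells gave 5 libraries per site. No library of the parent line in culture or of tumour-free tissue was analysed here, so all comparisons are between sites that share the line, strain, sex, age and day.

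Ribosomal protein transcripts are among the most abundant in growing cells. Many of them begin at a C followed by a run of pyrimidines (C or T in DNA), the 5-prime terminal oligopyrimidine or TOP motif, through which the growth regulator mTORC1 controls their translation, and the transcription factor MYC promotes the expression of ribosomal protein genes. Free RPL5 and RPL11 can bind and inhibit MDM2, the ligase that destroys p53, which links ribosome production to p53. Since TPM values are shares of a library, a member here is high or low relative to all other transcripts, and in whole tumours fewer cells of a type and less RNA per cell cannot be told apart.

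Start windows of 30 bases, from 10 bases before the annotated start to 20 bases from it onward, are given for some members. Capitals mark pyrimidine runs of at least 6 bases that open with a C within 10 bases of the start. A window without such a run does not show that the transcript lacks the motif. The sequences are RefSeq's for GRCm38.p6, which matched 60 of the 84 members, and positions are in that build, not in GRCm39, the build of the submitters' processing notes. The first 6 are among the longest runs found (Rpl27a, Rpl35, Rpl15, Rpl13a and Rps10) or belong to Rps6, the substrate of the S6 kinases that act below mTORC1.
Rpl27a (chr7:109519185-109519214, plus strand): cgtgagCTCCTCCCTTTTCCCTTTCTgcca
Rpl35 (chr2:39005112-39005141, minus strand): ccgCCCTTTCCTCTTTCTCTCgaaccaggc
Rpl15 (chr14:18270967-18270996, minus strand): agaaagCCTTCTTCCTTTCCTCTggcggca
Rpl13a (chr7:45128726-45128755, minus strand): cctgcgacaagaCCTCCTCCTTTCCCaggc
Rps10 (chr17:27635225-27635254, minus strand): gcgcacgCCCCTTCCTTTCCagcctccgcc
Rps6 (chr4:86857348-86857377, minus strand): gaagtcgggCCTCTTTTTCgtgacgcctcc
Rps18 and the pair Rpl39 and Rpl39l are shown because they are described below.
Rps18 (chr17:33955646-33955675, minus strand): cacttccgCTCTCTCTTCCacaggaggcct
Rpl39 (chrX:37085203-37085232, minus strand): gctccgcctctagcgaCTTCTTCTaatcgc
Rpl39l (chr16:10170218-10170247, plus strand): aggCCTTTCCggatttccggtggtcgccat
Rpl23, Rps16 and Rpl22l1, also described below, hold no such run in their windows.
Rpl23 (chr11:97782420-97782449, minus strand): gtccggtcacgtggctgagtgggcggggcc
Rps16 (chr7:28350679-28350708, plus strand): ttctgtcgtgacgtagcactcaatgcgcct
Rpl22l1 (chr3:28805498-28805527, plus strand): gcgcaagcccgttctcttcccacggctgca

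Of the 60 members with a window, 22 (36.7%) held the run on the transcript strand, against 15.9% of all 27025 genes of the table, while on the other strand the shares were 10.0% and 18.7%. CCGGAAGT, on either strand of the 300 bases around the start, was present in 18.3% of members and 4.3% of all genes. CACGTG, the E-box core that MYC can bind, searched in the same way, was present in 10.0% and 8.1%. These matches describe letters at annotated starts only.

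**Figure D1:**
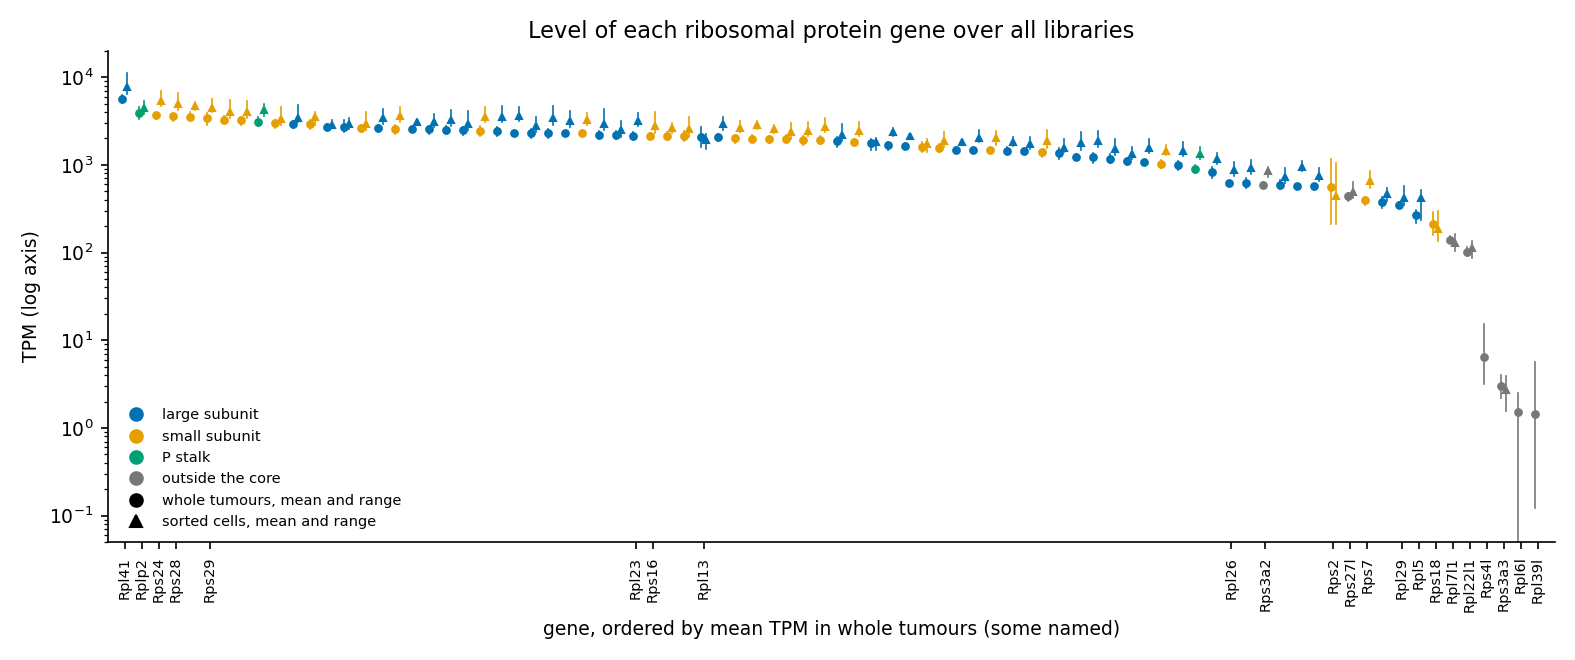
Mean TPM (log axis) of each ribosomal protein gene in whole tumours (circles, 16 libraries) and sorted cells (triangles, 15 libraries), with lines from the lowest to the highest library and colours by subunit; only some genes are named on the axis. Core genes lie between 183.7 and 7782 TPM on average, Rps2 has the longest line among them, and paralogs fill the low end; the lowest Rpl6l library, near 0, lies below the axis.

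Core members were expressed at a median of 1990 TPM in whole tumours and 2507 TPM in sorted cells, as means over libraries. By entries under the gene's own symbol, the most abundant in whole tumours were Rpl41, which encodes a very short peptide of the large subunit, at 5634 TPM, Rplp2 of the P stalk at 3927 TPM and Rps24 of the small subunit at 3694 TPM. In sorted cells Rpl41 led again at 7782 TPM, before Rps24 at 5369 TPM and Rps28 at 4998 TPM. The least abundant were Rps18 at 210 TPM, Rpl5 at 271 TPM and Rpl29 at 348 TPM in whole tumours, and Rps18 at 184 TPM, Rpl29 at 417 TPM and Rpl5 at 423 TPM in sorted cells. The order of the 76 core genes was nearly the same in both tables, with a Pearson r of 0.98 between log2 means, a description across genes that share libraries. Levels are not comparable between the tables, since the entry Rps12l1 and the copies of Rps18 were listed at very different levels in each, so the gene sets behind them may differ. This order excludes pseudogene entries. Summed with its own, Rps2 was 4744 TPM, Rps12 4388 TPM and Rps18 3659 TPM in whole tumours. In sorted cells the summed Rps2 was 8007 TPM, above Rpl41, so the order depends on how copies are counted.

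Most core genes varied little from library to library. In whole tumours the highest library was a median of 1.23-fold above the lowest, and 73 of the 76 core genes stayed within 1.5-fold over all 16 libraries. In sorted cells the median was 1.45-fold and 49 of 76 stayed within 1.5-fold. Rpl26 was the steadiest core gene in whole tumours, with an SD of log2 values of 0.045, followed by Rpl4 and Rpl19, and Rps3a1 was the steadiest in sorted cells, with an SD of 0.064. Rps2, which encodes a protein of the small subunit near the messenger RNA entry, was the most variable in both tables, with SDs of 0.81 and 0.53. Within sites, pairs of core genes moved together across libraries, with a median Pearson r of 0.61 over the 2850 pairs in 16 whole tumours and 0.66 in 15 sorted libraries; the libraries are shared by all pairs and TPM ties them to a common total. For Rps2 the median r with other core genes was only 0.13 and 0.08.

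A processed copy of Rps2 was listed at a higher level than Rps2 itself. In whole tumours Rps2 ranged from 213 TPM in pleural replicate 4 to 1167 TPM in peritoneal replicate 3, a 5.47-fold range, while the entry Rps2-ps10 held 3676 to 4747 TPM. Entries named as pseudogenes of Rps2 held 88.3% of the family's TPM in whole tumours and 94.5% in sorted cells, and the sum of Rps2 with them varied only 1.46-fold and 1.41-fold. The copy's sequence in GENCODE M21 matched the Rps2 coding sequence over 893 aligned bases with 5 mismatches, and a stretch of 60 bases (coding positions 394 to 453) shows how few positions distinguish them, with the 2 mismatches in capitals.
Rps2: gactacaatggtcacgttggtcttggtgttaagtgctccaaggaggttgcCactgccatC
Rps2-ps10: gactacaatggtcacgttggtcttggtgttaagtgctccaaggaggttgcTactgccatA
Reads were 50 bases long and single-ended, per the labels' protocols, and 69% of all 50-base stretches of the Rps2 coding sequence also occur in Rps2-ps10. Rps18 (94.3% of its family's TPM under pseudogene names), Rps7 (82.6%) and Rpl3 (67.2%) were likewise listed mainly under copies in whole tumours. For the core genes a median of 90.2% of all 50-base stretches of the coding sequence also occurred in transcripts of other genes in GENCODE M21, and for 27 of 76 all of them did. Only 4 core genes, among them Rpl41, Rpl8 and Rps3, had under 10% shared. How the division of shared reads bears on levels of single genes was not tested.

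Summed over members, ribosomal protein transcripts took overlapping shares of whole tumours at the 3 sites. The share of all TPM was 15.3% ± 0.488 (SD, n = 5) in subcutaneous, 15.1% ± 0.424 (SD, n = 5) in peritoneal and 14.3% ± 0.743 (SD, n = 6) in pleural tumours, in ranges of 14.7 to 16.0%, 14.6 to 15.7% and 13.5 to 15.5% that overlap. In sorted cells the share was 18.3% ± 1.13 (SD, n = 5) at the subcutaneous and 18.3% ± 0.464 (SD, n = 5) at the pleural site, and 20.9% ± 1.94 (SD, n = 5) at the peritoneal site. Peritoneal libraries held 18.9, 22.3, 19.7, 20.3 and 23.6% in the order of their replicate numbers. Replicates 2 and 5 were the highest of all sorted libraries, while replicates 1 and 3 lay within the subcutaneous range of 16.9 to 19.9%, and all 5 lay above the pleural range of 17.8 to 18.8%. The ratio of summed small to large subunit transcripts was near constant, with site means of 0.78 to 0.80.

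Other quantities also differed between the sorted libraries. Transcripts of the mitochondrial genome made up 2.91 to 4.49% of TPM in peritoneal sorted libraries, against 5.59 to 6.62% in subcutaneous and 5.11 to 6.35% in pleural ones, with no overlap. Of 15 leukocyte markers 12 were listed in sorted cells, and their summed level was 42.0 to 1033 TPM in subcutaneous, 48.1 to 120.8 TPM in peritoneal and 40.1 to 114.9 TPM in pleural libraries; Ptprc, which encodes CD45, reached 12.9 TPM in subcutaneous and at most 2.05 TPM in other sorted libraries. Of 5 endothelial markers 4 were listed, with sums of 13.6 to 21.3, 2.80 to 8.27 and 2.93 to 14.3 TPM. Of 8 mesothelial markers only 2 were listed in sorted cells, and their sum was 152.4 to 190.4, 209.3 to 304.8 and 161.3 to 318.8 TPM. All 6 fibroblast markers were listed in sorted cells, at sums of 2964 to 5214, 2186 to 3759 and 2672 to 3421 TPM. Skeletal muscle markers (12 of 12 listed) summed to 68.3 to 1315 TPM in subcutaneous, 6.48 to 11.3 TPM in peritoneal and 6.43 to 743.4 TPM in pleural whole tumours. Their part in the member differences was not tested, except where a value without a library is given.

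**Figure D2:**
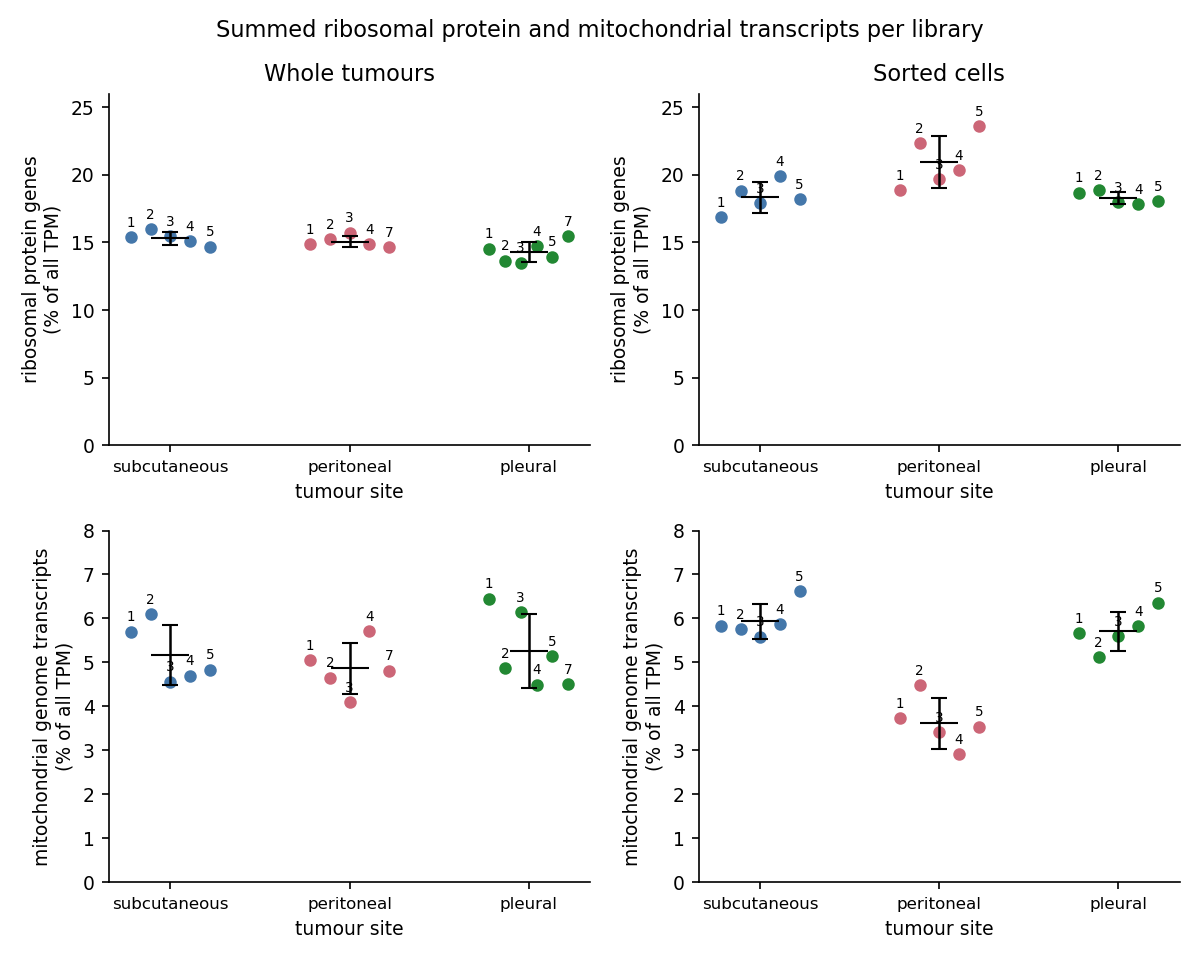
Summed TPM of the ribosomal protein genes (top) and of the mitochondrial genome (bottom) as a percentage of all TPM in each library, by site, for whole tumours (left) and sorted cells (right); points carry replicate numbers, and bars show mean and SD. Peritoneal sorted libraries hold 18.9 to 23.6% ribosomal protein transcripts and the lowest mitochondrial shares.

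In peritoneal against subcutaneous sorted cells 20 of 81 members (24.7%) were higher at adjusted p below 0.05 (limma on log2(TPM + 1), adjusted over all genes), where 4.75% of all genes tested were higher. Only 1 member (1.23%) was lower, Rpl22l1, where 6.33% of all genes were lower. The median member log2 fold change was 0.18, a rise of 13.6%, beside -0.03 for all genes, and 75 of 81 members lay above 0. Called were 12 large subunit genes, 7 small subunit genes and Rplp2, and their log2 fold changes ran from 0.22 for Rpl34 to 0.47 for Rps18.

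The count of higher members changed with the scaling and with single libraries. It was 0 with median-of-ratios scaling, at a median log2 fold change of 0.22 with 79 of 81 members above 0, and 15 with quantile normalization; scaling to the summed core members gave 0 higher and 4 lower, with 37 of 81 above 0, as it removes a shared shift. Leaving out peritoneal replicate 2 gave 2, replicate 5 gave 13, both together gave 2 at a median of 0.11, and replicate 1 gave 35. Without subcutaneous replicates 1, 3 or 5 it was 3, 7 and 5, and without subcutaneous replicates 1 and 2, which had the highest leukocyte sums, 1 at a median of 0.15. A rescaling that left out mitochondrial transcripts gave 12, and summing each member with its own pseudogene entries gave 27.

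Rpl23, a large subunit protein that can also bind MDM2, had the smallest adjusted p among members. Its TPM in subcutaneous sorted libraries was 2777, 2999, 2826, 3161 and 2908, in peritoneal ones 3318, 3918, 3381, 3440 and 3711, and in pleural ones 2840, 2880, 2922, 3005 and 3071. Every peritoneal library exceeded every other library. The log2 fold change of peritoneal against subcutaneous cells was 0.27 (SE 0.058, adjusted p = 0.00789), and the call was kept in all 15 fits that left out a library and in 26 of 28 alternatives in all.

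Rps16, a small subunit protein whose tail reaches the decoding region, was 2314, 2591, 2382, 2778 and 2613 TPM in subcutaneous and 2747, 3492, 3050, 2910 and 3983 TPM in peritoneal sorted cells. The lowest peritoneal library, replicate 1, lay just below the highest subcutaneous one, so the groups overlapped, and the pleural libraries, at 2388 to 2752 TPM, lay at the subcutaneous level. The log2 fold change was 0.34 (SE 0.091, adjusted p = 0.025) against subcutaneous cells. Rpl28 of the large subunit showed the same order, with 2484, 2622, 2546, 2972 and 2544 TPM in subcutaneous and 2887, 3640, 3173, 3095 and 4146 TPM in peritoneal cells, a log2 fold change of 0.35 (SE 0.090, adjusted p = 0.0207). Peritoneal replicates 2 and 5 were the highest of both genes. All stretches of read length in the Rps16 coding sequence also occur in its copy Rps16-ps2. That entry held 562.6, 555.9, 305.7, 524.3 and 108.2 TPM in peritoneal and 449.2 to 535.9 TPM in subcutaneous sorted cells. Across sorted libraries the highest Rps16 value was 1.72-fold the lowest, and 1.48-fold when summed with its copy. How reads were divided between Rps16 and this copy was not tested, and the fit with summed copies is given above only as a count of members. Rpl29, a small basic large subunit protein, did not overlap, with 350 to 417.7 TPM in subcutaneous and 418.9 to 569.6 TPM in peritoneal cells and a log2 fold change of 0.34 (SE 0.085, adjusted p = 0.0199).

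Rps18, a protein of the small subunit head, had the largest log2 fold change, 0.47 (SE 0.139, adjusted p = 0.0411). Its values were 153, 155, 145, 189 and 150 TPM in subcutaneous and 161, 295, 217, 191 and 252 TPM in peritoneal sorted cells, which overlap. It was the core gene with the lowest level, copies held 2.47% of its family in sorted cells, and the call was lost in 10 of 15 fits that left out a library. Among the other higher members, Rpl13a, Rpl17 and Rps24 did not overlap between the sites (chosen after their values were seen). Rpl13a, which can be released from the ribosome in interferon responses, was 2694 to 3163 TPM in subcutaneous and 3198 to 3835 TPM in peritoneal cells.

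**Figure D3:**
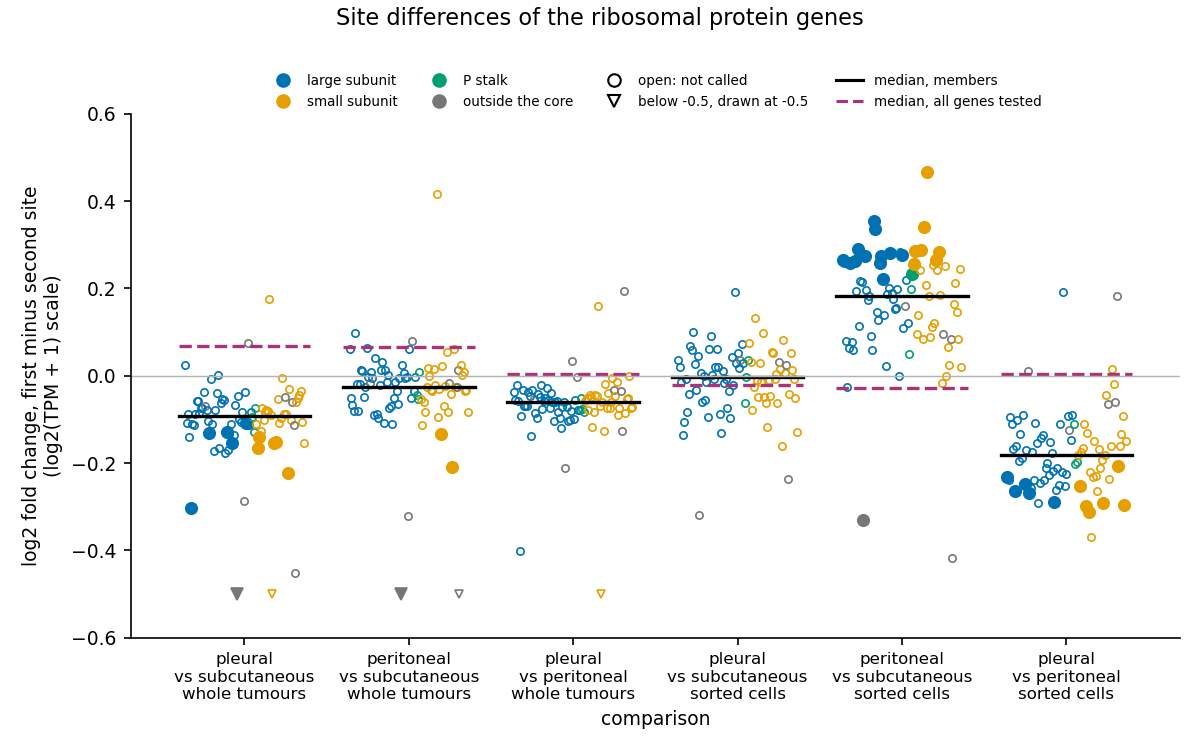
Log2 fold change (first minus second site, log2(TPM + 1) scale) of each ribosomal protein gene in the 6 comparisons; filled symbols passed adjusted p below 0.05, triangles lie below -0.5, black lines are member medians and dashed lines the medians of all genes tested. Members lie above the all-gene median in peritoneal against subcutaneous sorted cells (0.18 and -0.03) and below it in pleural against peritoneal sorted cells (-0.18 and 0.00).

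Pleural against peritoneal sorted cells, which share the peritoneal libraries with the comparison above, gave 11 of 81 members lower (13.6%, beside 5.51% of all genes) and 0 higher (beside 4.45%). The median member log2 fold change was -0.18, beside 0.00 for all genes, and 77 of 81 members lay below 0. The largest among called members was that of Rps16, -0.31 (SE 0.091, adjusted p = 0.0409). Its copy Rps16-ps2 held 200.6 to 827.6 TPM in pleural and 108.2 to 562.6 TPM in peritoneal cells. The division of reads between the gene and this copy was not tested. Rps15, a small subunit head protein needed for late maturation, gave -0.30 (SE 0.081, adjusted p = 0.0325), with 2912 to 3219 TPM in pleural and 3307 to 4538 TPM in peritoneal cells. Rpl37 gave -0.29 (SE 0.080, adjusted p = 0.0337), also without overlap. Rps26, which sits at the messenger RNA exit, gave -0.29 (SE 0.087, adjusted p = 0.0447), and Rpl23 -0.27 (SE 0.058, adjusted p = 0.0128). The count of lower members was 0 with median-of-ratios scaling and 19 with quantile normalization. Leaving out single libraries gave 1 to 33 members, with 1 without peritoneal replicate 2 or pleural replicate 3, 2 without peritoneal replicate 5 or pleural replicates 4 or 5, 6 without subcutaneous replicates 3 or 5, 7 without peritoneal replicate 4 or pleural replicate 2, 20 when peritoneal replicate 3 was dropped and 33 when peritoneal replicate 1 was.

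Pleural and subcutaneous sorted cells did not differ in any member at adjusted p below 0.05, with 0 higher (beside 0.397% of all genes) and 0 lower (beside 1.25%), and 1 of 81 (1.23%) at an unadjusted p below 0.05, Rpl22l1, beside 11.0% of all genes. The median log2 fold change was 0.00, and the median standard error of a member was 0.076, which sets the size of difference that could be detected. Rpl5 and Rpl11, the pair that can inhibit MDM2, were 399 ± 20.0 and 2812 ± 174 TPM (SD, n = 5) in subcutaneous, 412 ± 104 and 2974 ± 233 TPM in peritoneal, and 459 ± 56.6 and 2781 ± 128 TPM in pleural sorted cells. Neither passed the test in any comparison of sorted cells.

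**Figure D4:**
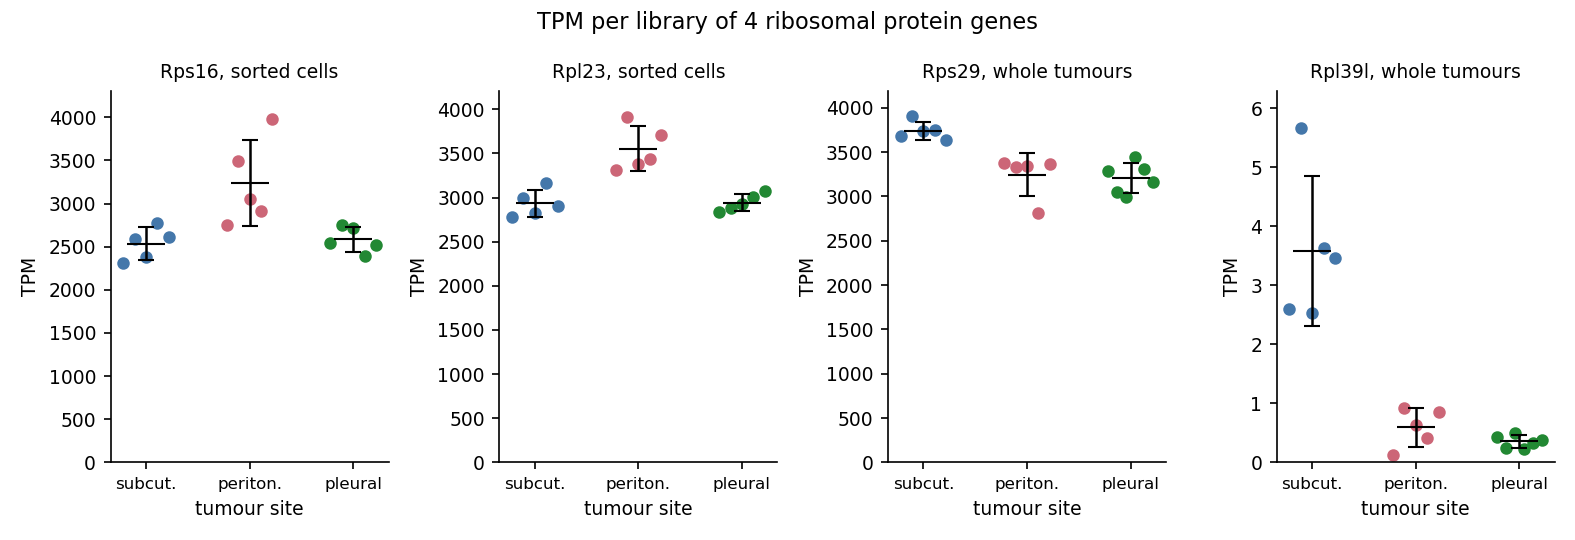
TPM per library of Rps16 and Rpl23 in sorted cells and of Rps29 and Rpl39l in whole tumours, by site, with mean and SD as bars. All 5 peritoneal Rpl23 points lie above the other sites, and all 5 subcutaneous points of Rps29 and Rpl39l lie above the other sites. Rpl39l passed the expression filter only through its subcutaneous libraries, so its separation was fixed by that filter.

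In pleural against subcutaneous whole tumours, 11 of 84 members (13.1%) were lower, beside 3.4% of all genes tested, and 0 were higher, beside 9.4%. Rpl39l passed the expression filter only through the subcutaneous libraries and had to differ, and without it 10 of 83 (12.0%) were lower. The median member log2 fold change was -0.09, beside 0.07 for all genes, and 80 of 84 members lay below 0, against 66 with quantile normalization and 39 with scaling to the summed core members. The count was 21 with median-of-ratios scaling, 2 with quantile normalization and 1, beside 3 higher, with scaling to the core members; over all genes the split of 1415 higher and 512 lower became 721 higher, 845 lower after median-of-ratios scaling and 674 higher, 718 lower after quantile normalization. Without subcutaneous replicates 1, 2 and 3, where Rpl39l is no longer tested, 4, 2 and 4 were lower, to be set beside 10, and without pleural replicates 2, 3 and 7, where it is, the count was 5, 7 and 22.

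Cell type and proliferation markers also differed between pleural and subcutaneous tumours, and their part was not tested. In sorted cells 2 of the 8 mesothelial markers were listed, at sums of 152.4 to 318.8 TPM over all libraries. All 8 proliferation markers were listed there, at sums of 852.4 to 1144 TPM. These and the 2 listed mesothelial markers are therefore not read here as marks of host cells alone. The other mesothelial markers were not listed in sorted cells, so the same is not known for them. The counts that follow stand beside 9.4% of all genes higher and 3.4% lower. Of 8 mesothelial markers 6 were higher and 0 lower, with a median log2 fold change of 0.98. Their sum was 199.0 to 305.0 TPM in pleural and 195.9 to 243.5 TPM in subcutaneous tumours. Of 11 skeletal muscle markers tested 8 were lower and 0 higher, at a median of -2.97, the largest being Acta1 at -4.84. Of 15 leukocyte markers 2 were lower and 0 higher, Ncr1 at -1.19 and Adgre1 at -0.73, with sums of 2603 to 4698 and 2966 to 4518 TPM. Of 5 endothelial markers 1 was lower and 0 higher, Pecam1 at -0.54. Of 8 proliferation markers 2 were higher and 0 lower, Mki67 at 0.29 and Top2a at 0.23.

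Rps29, a small zinc-binding protein of the small subunit, separated the subcutaneous site from both body cavities. Its TPM was 3680, 3903, 3741, 3746 and 3637 in subcutaneous tumours, 3374, 3335, 3337, 2811 and 3367 in peritoneal tumours (replicates 1, 2, 3, 4 and 7), and from 2990 through a median of 3225 to 3447 in pleural tumours. Every subcutaneous library was above every other library, and peritoneal and pleural values overlapped. The log2 fold changes were -0.22 for pleural (SE 0.052, adjusted p = 0.0142) and -0.21 for peritoneal (SE 0.054, adjusted p = 0.0233) against subcutaneous tumours, comparisons that share the subcutaneous libraries.

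Rpl13 of the large subunit had the log2 fold change -0.30 (SE 0.088, adjusted p = 0.0355), but subcutaneous libraries fell into high (2494, 2426 and 2380 TPM) and low values (1796 and 1900 TPM), the low ones within the pleural range of 1606 to 1919 TPM. The Rpl13 call was lost in 13 of 27 alternatives, 7 of them fits without a library. Its peritoneal values of 2089 to 2715 TPM lay above all pleural ones. Rpl37a gave -0.16 (SE 0.044, adjusted p = 0.0331) and Rps20 -0.15 (SE 0.045, adjusted p = 0.0363), with calls lost in 10 and 13 of 27 alternatives. Rpl24, Rpl35a, Rpl7a, Rps12 and Rps23 were also called and differed by log2 fold changes of -0.11 to -0.15.

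In peritoneal against subcutaneous whole tumours, besides Rpl39l, 2 members were lower, Rps29 and Rps23, a protein of the decoding centre, so that 2 of 83 members without Rpl39l (2.41%), or 3 of 84 with it (3.57%), stood beside 3.64% of all genes, and 0 were higher beside 8.52%. Rps23 was 1023 to 1132 TPM in subcutaneous and 960 to 1018 TPM in peritoneal tumours, without overlap, with a log2 fold change of -0.13 (SE 0.039, adjusted p = 0.0386); the call was lost in 14 of 27 alternatives, including all 5 that left out a peritoneal library. Fits without a subcutaneous library no longer test Rpl39l, and their count, to be set beside 2, was 0 without replicate 2 and 1 without replicates 1, 3 or 4. Over all genes 1283 higher and 548 lower became 708 higher, 849 lower after median-of-ratios scaling and 729 higher, 782 lower after quantile normalization. The median member log2 fold change was -0.02, beside 0.07 for all genes.

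Pleural and peritoneal whole tumours gave no called member in limma, 0 higher and 0 lower beside 0.0266% of all genes in each direction, and 10 of 84 (11.9%) at an unadjusted p below 0.05, beside 11.1% of all genes. The median member log2 fold change was -0.06 and 81 of 84 lay below 0, but 25 of 84 with scaling to the core members. Rpl13, at a log2 fold change of -0.40 (SE 0.088, adjusted p = 0.126), and Rps2, at -1.33 (SE 0.334, adjusted p = 0.18), did not overlap between these sites and did not pass.

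Rpl22 and Rpl22l1 encode alternative proteins of the same large subunit position, and RPL22 protein is known to repress Rpl22l1. Rpl22l1 in sorted cells was 131, 136, 129, 131 and 129 TPM at the subcutaneous site, 86.3, 122, 106, 97.5 and 111 TPM at the peritoneal site, and 116, 88.4, 128, 97.7 and 98.8 TPM at the pleural site. All subcutaneous libraries were above all others, and peritoneal and pleural values overlapped. Its log2 fold changes against subcutaneous cells were -0.33 for peritoneal (SE 0.102, adjusted p = 0.0492) and -0.32 for pleural cells (SE 0.102, adjusted p = 0.176), and the first call was lost in 12 of 15 fits that left out a library.

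Rpl22, its partner, was 1903 ± 61.4 TPM in subcutaneous, 2214 ± 196 TPM in peritoneal and 1967 ± 141 TPM in pleural sorted cells (SD, n = 5 each) and did not pass the test. As a percentage of Rpl22, a ratio that no scaling of a library changes, Rpl22l1 was 7.19, 7.05, 6.93, 6.58 and 6.73 in subcutaneous, 4.34, 4.97, 5.07, 4.53 and 4.71 in peritoneal, and 5.30, 4.85, 6.61, 4.96 and 5.17 in pleural sorted cells. Peritoneal and subcutaneous values did not overlap, and the log2 ratio differed by -0.55 (two-sided exact permutation p = 0.00794, the smallest that 5 against 5 libraries allow). Over the 36 ratio comparisons of paralogs other than Rpl39l, the adjusted p was 0.286, and the difference did not pass. With so few libraries, a single ratio without overlap cannot pass a correction over that many comparisons. The adjusted p therefore cannot decide whether this ratio differed. The pleural difference was -0.37 (exact permutation p = 0.0159, adjusted p = 0.286). In whole tumours the ratios were 7.13 ± 0.755% (SD, n = 5), 7.06 ± 0.614% (SD, n = 5) and 6.98 ± 0.788% (SD, n = 6) at the subcutaneous, peritoneal and pleural sites and overlapped. Of the 50-base stretches of Rpl22l1, 84.2% occur in other transcripts, and of Rpl22 31.0%.

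**Figure D5:**
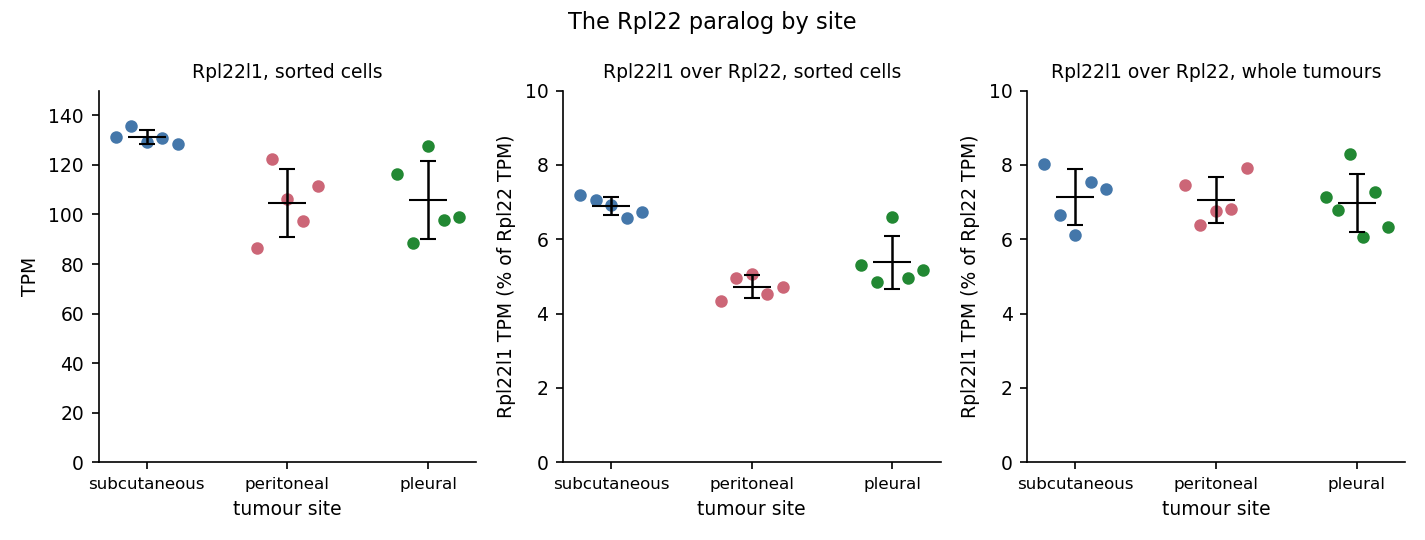
Rpl22l1 TPM per library in sorted cells (left), and Rpl22l1 as a percentage of Rpl22 in sorted cells (middle) and whole tumours (right), by site, with mean and SD as bars. In sorted cells the peritoneal ratios of 4.34 to 5.07% lie below the subcutaneous ratios of 6.58 to 7.19%, and in whole tumours the sites overlap.

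Rpl39l, a paralog of the exit tunnel protein Rpl39 that is best known from testis, was low everywhere. It was 2.60, 5.66, 2.53, 3.63 and 3.46 TPM in subcutaneous whole tumours, 0.121, 0.925, 0.637, 0.416 and 0.858 TPM in peritoneal ones, and 0.233 to 0.497 TPM, with a median of 0.354, in pleural ones. Subcutaneous tumours were all above 1 TPM and all others below, which is how the gene entered the family, so no test is given for it. Rpl39 itself was 1260 ± 44.6 TPM (SD, n = 5) in subcutaneous, 1255 ± 24.3 TPM (SD, n = 5) in peritoneal and 1204 ± 67.8 TPM (SD, n = 6) in pleural tumours. None of the 50-base stretches of the Rpl39l coding sequence occurred in other genes. The tested genes with the likest pattern over the 16 whole tumours were Irx1 (r = 0.96), Prokr2 (r = 0.95) and AW551984 (r = 0.95), chosen by highest r of log2(TPM + 1). Irx1 was 1.42 ± 0.382 TPM (SD, n = 5) in subcutaneous and at most 0.126 TPM in other tumours. Like Rpl39l, Irx1 and Prokr2 reached 1 TPM only in subcutaneous tumours, so their r values are not independent of the expression filter. Muscle marker sums in subcutaneous tumours were 516, 1315, 68.3, 491 and 363 TPM in the order of their replicate numbers. The highest and lowest sums were in replicates 2 and 3, which also held the highest and lowest Rpl39l of that site. Muscle marker sums were also high in pleural replicates 3 and 5, at 516 and 743 TPM, where Rpl39l was 0.497 and 0.331 TPM. The part of muscle in the subcutaneous level was not tested.

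No other paralog passed limma at adjusted p below 0.05 in any comparison. Rps27l, a p53-induced paralog of Rps27, was 19.7 ± 0.774% (SD, n = 5) of Rps27 in subcutaneous, 18.8 ± 1.48% (SD, n = 5) in peritoneal and 19.2 ± 1.52% (SD, n = 6) in pleural whole tumours, and 15.2 ± 0.865%, 14.3 ± 1.21% and 15.5 ± 1.46% (SD, n = 5 each) in sorted cells. Rpl7l1, a nucleolar relative of Rpl7, was 5.60 ± 0.182%, 5.69 ± 0.550% and 6.07 ± 0.381% of Rpl7 in whole tumours; the pleural difference from subcutaneous tumours, 0.11 on the log2 scale, had an exact permutation p of 0.0476 and an adjusted p of 0.381. In sorted cells its likest genes were Pwp2 (r = 0.95), Mogs (r = 0.93) and Utp6 (r = 0.92), over 15 libraries, of which Pwp2 and Utp6 encode proteins of small subunit assembly. Rps3a2 was 29.7 to 30.5% of Rps3a1 in whole tumours by site means, and Rps3a3 lay at 2.21 to 3.99 TPM there. Rps4l ranged from 3.13 to 15.2 TPM, with the highest value in pleural replicate 3, and Rpl6l from near 0 to 2.53 TPM.

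Of the 4 further ribosomal protein genes that carry other names, 1 was higher and 0 lower in peritoneal against subcutaneous sorted cells (beside 4.75% and 6.33% of all genes), with all 4 log2 fold changes above 0. Rpsa, a small subunit protein, was 2880 ± 159 TPM in subcutaneous and 3296 ± 83.2 TPM in peritoneal sorted cells (SD, n = 5), a log2 fold change of 0.20 (SE 0.058, adjusted p = 0.0413). Fau, which encodes RPS30 in fusion with a ubiquitin-like domain, was 2060 ± 72.3 TPM in subcutaneous and 1890 ± 60.5 TPM in peritoneal whole tumours, a log2 fold change of -0.12 (SE 0.039, adjusted p = 0.0498). In that comparison 1 of the 4 genes was lower and 0 higher, beside 3.64% and 8.52% of all genes.

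Mitochondrial ribosomal proteins are a separate family, made in the cytosol for the ribosome of the mitochondrion. In peritoneal against subcutaneous sorted cells 7 of 78 were higher and 0 lower (beside 4.75% and 6.33% of all genes), with a median log2 fold change of 0.17 and 77 of 78 above 0. The largest were those of Mrps18b, 0.49 (SE 0.108, adjusted p = 0.0103), Mrpl15, 0.39 (SE 0.072, adjusted p = 0.00328), and Mrpl17, 0.39 (SE 0.089, adjusted p = 0.0128). In pleural against peritoneal sorted cells 13 of 78 were lower and 0 higher (beside 5.51% and 4.45% of all genes), with a median of -0.22.

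Other genes of the TOP class, such as elongation factors, gave 6 of 21 higher and 0 lower in peritoneal against subcutaneous sorted cells (beside 4.75% and 6.33% of all genes), with a median log2 fold change of 0.07. Tpt1, the translationally controlled tumour protein, was 9572 ± 470 TPM in subcutaneous and 11517 ± 1267 TPM in peritoneal cells (SD, n = 5), a log2 fold change of 0.26 (SE 0.068, adjusted p = 0.0234). Gas5, a noncoding host gene of small nucleolar RNAs, gave 0.29 (SE 0.088, adjusted p = 0.045), and Eef1d, an elongation factor subunit, 0.31 (SE 0.060, adjusted p = 0.00507).

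Ribosome assembly factors gave 4 of 44 higher and 0 lower in the same comparison, with a median of 0.10; this count and those of the next lists stand beside 4.75% of all genes higher and 6.33% lower, and counts of 1 are near that background. Ppan, which acts in large subunit assembly, was 21.4 ± 3.55 TPM in subcutaneous and 32.4 ± 2.69 TPM in peritoneal cells (SD, n = 5), a log2 fold change of 0.59 (SE 0.113, adjusted p = 0.00441), and was 21.5 ± 2.73 TPM in pleural cells. Nat10, an acetyltransferase of ribosomal RNA, gave 0.46 (SE 0.130, adjusted p = 0.0345) and Nop14 0.40 (SE 0.095, adjusted p = 0.0155). Of 12 genes of the RNA polymerase I machinery, 1 was higher and 0 lower, Polr1c at 0.29 (SE 0.077, adjusted p = 0.0242). Of 25 translation initiation factors, 0 were higher and 1 lower, Eif5 at -0.50 (SE 0.143, adjusted p = 0.0357).

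Of 20 genes of MYC and mTORC1 control, 1 was higher and 4 lower in peritoneal against subcutaneous sorted cells (beside 4.75% and 6.33% of all genes), with a median of -0.20. Myc was 95.8 ± 31.7 TPM in subcutaneous, 45.6 ± 7.36 TPM in peritoneal and 104.9 ± 55.8 TPM in pleural sorted cells (SD, n = 5), with a log2 fold change of -1.0 (SE 0.290, adjusted p = 0.0372) against subcutaneous cells. Every peritoneal library, at 34.3 to 54.4 TPM, was below every subcutaneous one, at 55.3 to 134.3 TPM. Mxd1, a MYC antagonist, gave -1.41 (SE 0.243, adjusted p = 0.00222) and Ddit4, an inhibitor of mTORC1 induced by stress, -0.95 (SE 0.173, adjusted p = 0.00324).

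Of 10 genes of the pathway from RPL5 and RPL11 to p53, 1 was higher and 1 lower (beside 4.75% and 6.33% of all genes), about what all genes show. Mdm2 was 64.7 ± 7.73 TPM in subcutaneous, 45.3 ± 10.1 TPM in peritoneal and 78.6 ± 10.8 TPM in pleural sorted cells (SD, n = 5), with a log2 fold change of -0.53 (SE 0.154, adjusted p = 0.0369) for peritoneal against subcutaneous and 0.81 (SE 0.154, adjusted p = 0.00786) for pleural against peritoneal cells. Trp53 was 115 ± 5.74, 145 ± 13.6 and 119 ± 6.87 TPM, with log2 fold changes of 0.32 (SE 0.071, adjusted p = 0.01) and -0.28 (SE 0.071, adjusted p = 0.0261). The proliferation markers gave 2 of 8 higher in peritoneal against subcutaneous cells, Top2a at 0.37 (SE 0.112, adjusted p = 0.0428) and Cdk1 at 0.29 (SE 0.077, adjusted p = 0.0256).

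In pleural against subcutaneous tumours 8 of 78 mitochondrial ribosomal proteins were lower and 0 higher (beside 3.4% and 9.4% of all genes, which also apply to the next lists), at a median log2 fold change of -0.06, the largest being Mrpl33 at -0.24 (SE 0.062, adjusted p = 0.0234). Of 44 assembly factors 1 was lower, Nhp2 at -0.24 (SE 0.067, adjusted p = 0.029), and of 14 RNA polymerase I genes 2 were higher, Ttf1 at 0.30 (SE 0.082, adjusted p = 0.0271) and Polr1a at 0.25 (SE 0.067, adjusted p = 0.0247). Of 21 genes of MYC and mTORC1 control 4 were higher and 0 lower, among them Sesn2, an mTORC1 inhibitor, at 0.44 (SE 0.085, adjusted p = 0.00615), and Ddit4 at 0.58 (SE 0.182, adjusted p = 0.0486). Sesn2 was also higher in peritoneal against subcutaneous tumours, at 0.38 (SE 0.089, adjusted p = 0.0152). Myc was 93.7 ± 4.59, 84.3 ± 2.49 and 96.6 ± 11.3 TPM in subcutaneous, peritoneal and pleural tumours.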

How the data were processed

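RNA of whole tumours and of sorted tumour cells was sequenced as 50-base single-end reads, per the labels' protocols, after extraction with different RNeasy kits. The deposited values are TPM, made by the authors with kallisto on GRCm39, per the submitters' processing notes; of its version, the annotation release and the summing to genes, the sources used here say nothing. TPM keeps no read depth, so the depth of each library is unknown and no counting error is given. Both tables were normalized separately and were tested separately. Entries changed to dates (17 in the sorted cell table) were left out.

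Log2(TPM + 1) values were fitted with limma 3.58.1 in R 4.3.3 (empirical Bayes with a mean trend, 3 sites in 1 fit), over genes at 1 TPM or more in at least 5 libraries (15054 in whole tumours, 12357 in sorted cells). P-values were adjusted by Benjamini-Hochberg over all genes, at 0.05, and the script was tested on simulated data. Paralog ratios were compared by two-sided exact permutation. Named were, per comparison, up to 6 called members of largest absolute log2 fold change and up to 4 per direction, the paralogs with their partners, the 3 most and 3 least abundant and the most and least variable core genes per table, up to 3 called genes of each other list, and for paralogs the 3 genes of highest Pearson r. The members and lists were chosen with earlier results of these data known. Nothing states that libraries of a site came from separate experiments, so p-values measure the spread between these libraries. Alternatives covered the pseudocount, filter, scaling, sites fitted, threshold, replicate block, copies and left-out libraries. A few members are not reported by name here. Figures were drawn with matplotlib 3.10.9.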

Additional observations from a re-analysis of the deposited data

Results flagged for a closer look

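Single libraries stood apart from the rest of their site, by the gap to the nearest library relative to the range, in 11 of 171 gene and site groups examined (6.43%), where chance gives about 1 in 20. In whole tumours, Rpl22l1 was 115 TPM in pleural replicate 3 against 91.7 to 99.9 TPM in the others, and Rps4l was 15.2 TPM in the same library against 3.79 to 5.69 TPM. Rpl39 was 1183 TPM in subcutaneous replicate 5 against 1264 to 1296 TPM, and Rps29 was 2811 TPM in peritoneal replicate 4 against 3335 to 3374 TPM.

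In sorted cells, pleural replicate 2 stood apart for 3 genes. Rps2 was 1060 TPM there against 210 to 366 TPM, Rpl37 3435 TPM against 3070 to 3163 TPM, and Rps3a1 2448 TPM against 2585 to 2634 TPM. Subcutaneous replicate 4 was high for Rpl28, at 2972 TPM against 2484 to 2622 TPM, and for Rps18, at 189 TPM against 145 to 155 TPM. Rps2 was 734 TPM in peritoneal replicate 3 against 315 to 425 TPM, and Rps23 was 1480 TPM in pleural replicate 1 against 1322 to 1341 TPM.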

How the results depend on the processing

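In pleural against subcutaneous whole tumours the count of 11 lower members was 5 with no filter, 21 with median-of-ratios scaling, 2 with quantile normalization, 1 (and 3 higher) with scaling to the summed core members, and 1 at adjusted p below 0.01. In peritoneal against subcutaneous tumours the count of 3 was 1 with no filter, 1 (and 1 higher) with quantile normalization and 1 at adjusted p below 0.01. In peritoneal against subcutaneous sorted cells the 20 higher members were 0 with median-of-ratios or core scaling, 6 with only these sites fitted, 1 at adjusted p below 0.01, 12 without mitochondrial genes, 2 without peritoneal replicates 2 and 5, and 1 without subcutaneous replicates 1 and 2. The 1 lower member became 0 with a pseudocount of 0.1, median-of-ratios scaling, quantile normalization, adjusted p below 0.01 or without subcutaneous replicates 1 and 2, and 4 with core scaling. In pleural against peritoneal sorted cells the 11 lower members were 0 with median-of-ratios or core scaling, 19 with quantile normalization, 2 with only these sites fitted, 0 at adjusted p below 0.01, 3 without mitochondrial genes, 0 without peritoneal replicates 2 and 5, and 6 without subcutaneous replicates 1 and 2. The cause was not tested. Summing copies, rescaling without mitochondrial genes and both paired omissions were chosen after seeing the data.

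Core scaling moved the median of all genes to 0.16, -0.20 and 0.17 in the comparisons of pleural with subcutaneous tumours, peritoneal with subcutaneous cells and pleural with peritoneal cells. The all-gene calls in the 2 cell comparisons, 587 higher and 782 lower, and 550 and 681, became 80 and 1155, and 644 and 68, with core scaling, and 1525 and 961 in the first with quantile normalization. Leaving out 1 library gave 2 to 22, 0 to 4, 2 to 35 (lower: 0 to 1) and 1 to 33 members in the 4 comparisons with calls, and 0 in the others; tumour fits without a subcutaneous library no longer test Rpl39l.

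With the replicate number as a block, the counts were 2 and 1 lower in pleural and peritoneal against subcutaneous tumours, 18 higher and 0 lower in peritoneal against subcutaneous cells, and 9 lower in pleural against peritoneal cells. Numbers are those of the mice in the titles; the library names of peritoneal tumours from mice 2, 3 and 4 carry 3, 4 and 5 instead, and a block on those was not run. The libraries share only a number: correlations of same-numbered deviations ran from -0.38 to 0.26 in tumours and from -0.30 to 0.35 in cells, and 3 of 16 and 5 of 15 libraries correlated best with their own number. Depth cannot be read from TPM.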

Other observations

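The entry Rps12l1, whose symbol fits the family pattern, was at most 0.000127 TPM in whole tumours and so was no member, but in the sorted cell table it was listed at 1588 ± 164 TPM (SD, n = 5) in subcutaneous, 2137 ± 374 TPM (SD, n = 5) in peritoneal and 1592 ± 460 TPM (SD, n = 5) in pleural cells. Rps18 copies likewise differed between the tables, with 94.3% of its family's TPM under pseudogene names in whole tumours and 2.47% in sorted cells.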
